A study of Drosophila melanogaster with 2 samples.

Results

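The genes described here code for subunits of the vacuolar H+ ATPase and were taken as all fly genes whose symbol begins with Vha. The deposited tables count reads on 17612 genes, of which 17549 could be paired with a symbol, and 33 of these were Vha genes. From background knowledge they were divided into 14 canonical copies, 1 for each subunit and widely used in fly tissues, and 19 other copies of the same subunits, many of which are known as testis or otherwise tissue-restricted copies.

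The cells were single larval hemocytes, chosen on the plasmatocyte reporter EaterDsRed and sequenced with Smart-seq2, a method that amplifies cDNA along the whole transcript and attaches no molecular identifiers. The Beadex MS1096-Gal4 driver (Bx), which is active in the salivary gland, was crossed to w1118 as the control, to UAS-RasV12, a dominant-active Ras, or to p35 together with UAS-RasV12, where p35 blocks effector caspases. The paper describes RasV12 as expressed in the salivary gland, and whether the driver was also active in hemocytes was not tested here. Circulating hemocytes were bled from larvae of all 3 genotypes and attached hemocytes, known as tumor-associated hemocytes or TAHs, from the gland surface of RasV12 and p35;RasV12 larvae, since control glands carry too few to collect. The age of these larvae was not given in the sources used here. After the filter on cells, 434 remained, namely 125 w1118, 126 RasV12 and 124 p35;RasV12 circulating cells and 40 RasV12 and 19 p35;RasV12 attached cells. Where values are listed without names, they follow this order, circulating genotypes first and attached genotypes second.

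The circulating cells of a genotype came from larvae bled together, and the attached cells from several pairs of glands kept in separate drops, with no record here of the gland a cell came from. Each of the 5 groups is therefore 1 sample, a difference between groups could not be compared with the spread between larvae, and no p-value is given. GEO's labels name 2 samples, w1118 and RasV12, whereas the deposited annotation of cells gives the 3 circulating and 2 attached genotypes, so every genotype here rests on that annotation. Levels are counts scaled to a group total of 1000000 reads (CPM), and intervals at 95% cover counting error only, which is too narrow for reads that PCR copied. A CPM is relative to the other transcripts of the same cells, so that fewer transcripts of a gene and more of all others cannot be told apart. Attached and circulating cells also differed in isolation (capillary or sorter), in the number of PCR cycles, in the sequencer and in paired or single reads, so location and handling cannot be told apart.

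The vacuolar H+ ATPase is a rotary pump that uses ATP to move protons into endosomes, lysosomes and phagosomes. Its soluble V1 sector hydrolyses ATP, its membrane sector Vo carries the protons, and both can come apart and reassemble. In macrophage-like cells such as plasmatocytes the pump is known for acidifying phagosomes and for activating lysosomal proteases, and on the lysosome it is part of the platform on which amino acids activate TORC1.

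Median depth was 582056 to 637375 reads in the circulating groups and 1.11465e+07 and 1.12951e+07 reads in the attached groups. All 8 plasmatocyte markers had reads in every group, with a summed level of 16856 to 31683 CPM in circulating and 10688 and 11057 CPM in attached cells. The 10 salivary gland genes held 0.063 to 0.49 CPM in circulating but 32112 and 21113 CPM in attached cells, and the 8 fat body genes 24078 and 47019 CPM there. Crystal cell markers reached 15918 CPM in attached p35;RasV12 cells against 89.5 to 511 CPM in the other groups. Their median over cells was 620 CPM there and 0 to 56.2 CPM in the other groups, and its highest cell had 76914 CPM. The crystal cell regulator lz had 0.038 to 0.893 CPM over all 5 groups. Summed over a group, lamellocyte markers were highest in circulating p35;RasV12 cells, at 1226 CPM against 428 to 923 CPM elsewhere. Their median over cells was lowest there, at 328 CPM against 355 to 675 CPM, and the highest cell had 29096 CPM. Of this list, atilla had 253 CPM there, with a read in 17 of 124 cells, against 0.014 to 5.31 CPM elsewhere. In contrast, mys was highest in attached RasV12 cells, at 848 CPM against 445 CPM in circulating p35;RasV12 cells. The part of these transcripts in the results below was not tested beyond the values given without the cells rich in them.

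All 14 canonical genes were read in every group, and at least 117 of the 124 to 126 cells of a circulating group and every attached cell held a read of each of them. A read of all 14 was found in 122 of 125, 120 of 126 and 110 of 124 circulating cells and in all 40 and 19 attached cells. Together they took 0.854%, 0.783% and 0.714% of the reads of circulating w1118, RasV12 and p35;RasV12 cells, and 0.676% and 0.605% of those of attached cells. At this depth most single hemocytes thus held RNA of every canonical subunit.

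In the V1 sector, Vha68-2 codes for the catalytic A subunit and Vha55 for the nucleotide-binding B subunit that alternates with it. Vha68-2 had 1028, 952 and 912 CPM in circulating w1118, RasV12 and p35;RasV12 cells and 575 and 606 CPM in attached cells. Vha55 had 713, 609 and 518 CPM in circulating cells and 576 and 310.0 CPM in attached cells. Both were highest in w1118, and Vha55 was lowest in attached p35;RasV12 cells, where Vha68-2 was not. Vha36-1 and Vha14-1 code for subunits D and F of the central stalk, which turns with the membrane ring. Vha36-1 had 310.1, 279 and 240.4 CPM in the circulating and 250.2 and 286 CPM in the attached groups. Vha14-1 had 229, 182 and 158 CPM in circulating and 187 and 189.6 CPM in attached cells. Both stalk genes stepped down across the 3 circulating genotypes, whereas their attached levels lay inside the circulating range.

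Vha26 and Vha13 code for subunits E and G, which pair as the outer stalks. Vha26 had 749, 695 and 710.3 CPM in circulating and 559 and 629 CPM in attached cells. Vha13 had 339.8, 306 and 302 CPM in circulating and 384 and 278 CPM in attached cells. The attached RasV12 level was thus the highest of the 5 groups for Vha13 and the lowest for Vha26. Vha44 and VhaSFD code for subunits C and H, which sit between the sectors and take part in their coming apart. Vha44 had 278, 251 and 222 CPM in circulating and 244 and 228 CPM in attached cells. VhaSFD had 330.3, 355 and 336 CPM in circulating and 272 and 249 CPM in attached cells. Of the circulating genotypes, RasV12 had the highest VhaSFD level and the middle Vha44 level. The exons of Vha44 share 148 bases (3.68%) with Hmgs on the opposite strand, and reads there cannot be assigned by strand.

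In the Vo sector, Vha16-1 codes for the c subunit, of which several copies form the proton-carrying ring, and VhaPPA1-1 for its larger relative c". Vha16-1 had 2156, 1763 and 1345 CPM in circulating and 1696 and 1329 CPM in attached cells. VhaPPA1-1 had 492, 471 and 445 CPM in circulating and 313 and 224 CPM in attached cells. Vha16-1 was thus lower in each p35;RasV12 group than in the RasV12 group of the same location. VhaAC39-1, the d subunit that couples the central stalk to the ring, had 515, 429 and 337 CPM in circulating and 315 and 294 CPM in attached cells. Vha100-2, a copy of the large a subunit that holds the proton path, had 441, 581 and 696 CPM in circulating and 423 and 555 CPM in attached cells. It was the canonical subunit whose circulating levels followed the opposite order. VhaM9.7-b, the small e subunit, had 271, 251 and 265 CPM in circulating and 482 and 406 CPM in attached cells. VhaAC45, an accessory glycoprotein of Vo that helps assembly, had 685, 706 and 654 CPM in circulating and 487 and 465 CPM in attached cells.

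**Figure D1:**
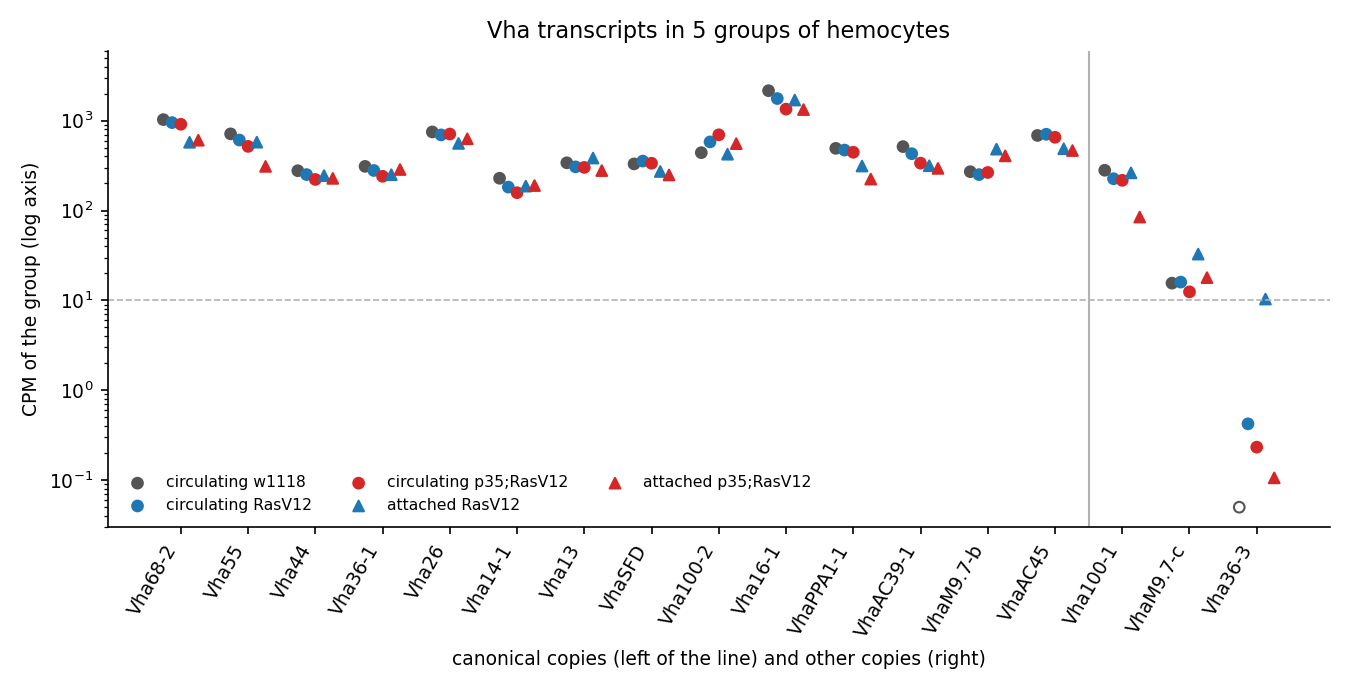
Level of the 14 canonical Vha genes and of the 3 other copies that reached 10 CPM in a group, as CPM on a log axis, with 1 point for each of the 5 groups. An open symbol at the bottom stands for 0 reads and the dashed line for 10 CPM. All 14 canonical genes lie above 150 CPM in every group, and of the other copies Vha100-1 lies among them in the circulating groups.

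Divided by exonic length, Vha16-1 was the highest canonical gene in all 5 groups, with 701, 573 and 437 CPM per kb in circulating and 551 and 432 CPM per kb in attached cells. Vha44 was the lowest in each, at 55.1 to 69.0 CPM per kb. The second place went to Vha68-2 in circulating w1118 (373 CPM per kb) and p35;RasV12 cells (331), to VhaAC45 in circulating RasV12 (351), to Vha13 in attached RasV12 (407) and to VhaM9.7-b in attached p35;RasV12 cells (334). The level per length of the ring subunit over that of the second gene was 1.88 in w1118 and 1.32 in circulating p35;RasV12 cells. Full-length coverage in Smart-seq2 is uneven along transcripts, so levels per length of different genes are approximate.

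Of the 19 other copies, 3 reached 10 CPM in at least 1 group. Vha100-1, a second copy of the a subunit known for its role in fly neurons, had 281, 226 and 217 CPM in circulating and 263 and 84.6 CPM in attached cells. VhaM9.7-c, a copy of the e subunit, had 15.6, 16.0 and 12.5 CPM in circulating and 32.8 and 17.9 CPM in attached cells. Vha100-1 was read in at least 121 of 124 to 126 circulating cells of each genotype and in all attached cells, whereas VhaM9.7-c was read in 63 of 125, 56 of 126 and 44 of 124 circulating cells. Cells thinned to 420000 reads held a read of Vha100-1 in 98.2%, 94.5% and 99.1% of circulating and in 97.4% and 88.2% of attached cells. For VhaM9.7-c it was 45.0%, 44.5% and 35.4% of circulating and 71.8% and 52.9% of attached cells.

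Vha36-3, a copy of the central stalk subunit D, passed 10 CPM through a single group. It had 0, 0.423 and 0.233 CPM in circulating and 10.3 and 0.106 CPM in attached cells. Reads were seen in 0 of 125, 1 of 126 and 2 of 124 circulating cells, in 24 of 40 attached RasV12 and in 10 of 19 attached p35;RasV12 cells. A count of 0 of 125 cells allows a share of up to 2.40% with 3 cells as the limit, or 2.91% as the upper bound of the exact interval. A single attached RasV12 cell gave 69.0% of the attached RasV12 reads, whose median over cells was 0.189 CPM. Since attached cells were far deeper, the share of cells is better read after thinning, which left 0, 0.909% and 1.77% of circulating and 28.2% and 11.8% of attached cells with a read. Thinning made counts equal but not cDNA fragments, since each mate of a pair counts in the attached set.

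The remaining 16 other copies stayed under 10 CPM in every group. Of these, 4 had no read in any of the 434 cells, namely Vha16-2, Vha16-3, VhaAC39-2 and VhaM9.7-d, although 84.5% of the exonic bases of Vha16-2 lie on an antisense RNA and would be lost to ambiguous counting. The 12 others were Vha68-1, Vha68-3, Vha36-2, Vha14-2, Vha100-3, Vha100-4, Vha100-5, Vha16-4, Vha16-5, VhaPPA1-2, VhaM9.7-a and VhaAC45RP. The highest level among them was 5.57 CPM, of Vha68-3 in circulating RasV12 cells.

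Vha68-3 stood apart from these low copies in how many cells held it. Its levels were 2.72, 5.57 and 2.11 CPM in circulating and 0.746 and 0.365 CPM in attached cells. A read was found in 87 of 125, 111 of 126 and 82 of 124 circulating cells, but at least 5 reads in 9, 16 and 2 of them. It lies 178 bases after Vha68-2 on the same strand of 2L, in the Dm6 annotation of the files, and Vha68-2 made up at least 99.0% of the reads per length of the A subunit in every group. Whether reads of Vha68-3 come from its own transcripts or from Vha68-2 was not tested. VhaPPA1-2 had 1.93 CPM in attached p35;RasV12 cells with 97.8% of the reads in 1 cell, and VhaAC45RP had 0.846 CPM in attached RasV12 cells from 5 cells, 1 of which held 53.3% of the reads.

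The first question was how the pump differed in circulating hemocytes of larvae with a RasV12 gland. Summed over the 14 canonical subunits, the level was 8536 CPM in w1118, 7831 CPM in RasV12 and 7141 CPM in p35;RasV12 circulating cells. Of these sums, Vha16-1 alone gave 2156, 1763 and 1345 CPM, and so more of the fall than all other canonical genes together. Over single cells the sum ran from 1862 through a median of 8570 to 15470 CPM in w1118 cells, from 3358 through 7635 to 13033 CPM in RasV12 cells, and from 0 through 6854 to 14066 CPM in p35;RasV12 cells. The medians therefore stepped down in the same order as the sums, and the cells of the 3 genotypes overlapped over most of their range. The cell with 0 CPM was that with the fewest reads, 2129. The coefficient of variation between cells was 24.8%, 19.7% and 28.8%.

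**Figure D2:**
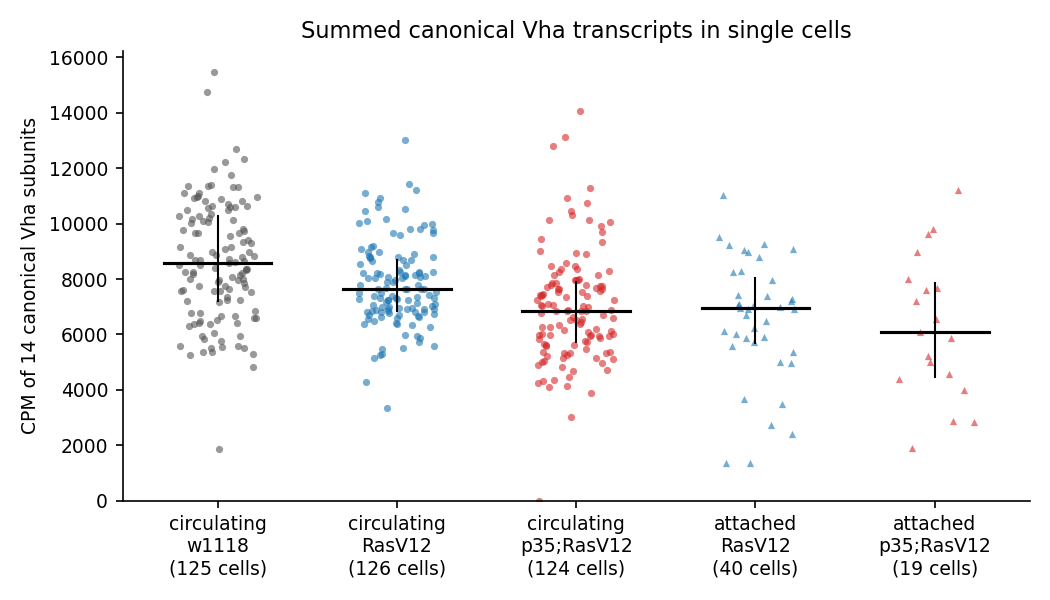
Summed CPM of the 14 canonical Vha genes in each single cell of the 5 groups, with the median as a bar and the quartiles as a line. The medians are 8570, 7635 and 6854 CPM in circulating and 6944 and 6088 CPM in attached cells, in the order of genotypes on the axis, and the groups overlap.

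Between RasV12 and w1118 circulating cells, 3 of the 14 canonical genes were higher and 11 lower in RasV12, with a log2 ratio of the sum of -0.12. None was past 1.5-fold in either direction. Of 6089 genes compared, those whose higher group reached 10 CPM, 16.3% were at least 1.5-fold higher and 5.55% at least 1.5-fold lower. The median log2 ratio was -0.13 over the canonical genes and 0.10 over all genes, of which 61.1% were higher in RasV12. Vha100-2 had the largest ratio at 0.40 (0.38 to 0.42), followed by VhaSFD at 0.10 and VhaAC45 at 0.04. The smallest were Vha14-1 at -0.33 (-0.36 to -0.29), Vha100-1 at -0.31 and Vha16-1 at -0.29 (-0.30 to -0.28). TMM factors moved all ratios by -0.11 and turned VhaAC45 to -0.06 and VhaSFD to -0.003, which left Vha100-2 as the 1 canonical gene above 0, and the filter of methods 2.9, which left 6 w1118 and 12 RasV12 cells, turned the sum to 0.08.

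Between p35;RasV12 and RasV12 circulating cells, 3 canonical genes were higher and 11 lower in p35;RasV12, with a log2 ratio of the sum of -0.13. Again none was past 1.5-fold, against 9.87% of 6220 genes higher and 6.48% lower by that fold. The canonical median was -0.10 and that of all genes 0.05, of which 56.3% were higher in p35;RasV12. Vha100-2 was once more the largest at 0.26 (0.24 to 0.28), with VhaM9.7-b at 0.08 and Vha26 at 0.03, both of which fell below 0 with TMM factors. Vha16-1 was the smallest at -0.39 (-0.40 to -0.38), with VhaM9.7-c at -0.36 and VhaAC39-1 at -0.35 (-0.37 to -0.32).

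The steps added up between p35;RasV12 and w1118 circulating cells, a comparison that shares its cells with both others. Here 2 canonical genes were higher and 12 lower in p35;RasV12, and the log2 ratio of the sum was -0.26. The median was -0.17 over the canonical genes and 0.18 over all genes, of which 62.2% were higher in p35;RasV12. One was at least 1.5-fold higher and 2 at least 1.5-fold lower, against 26.1% and 11% of 6224 genes. Vha100-2 was 1.58-fold higher, at a log2 ratio of 0.66 (0.64 to 0.68). In single cells it ran from 0 through a median of 426 to 1642.5 CPM in w1118 and from 0 through 604 to 1962 CPM in p35;RasV12 cells. Vha16-1 (2R:6625242-6633090, Dm6) was 1.60-fold lower, at -0.68 (-0.69 to -0.67), and ran from 527 through 2215 to 4006 CPM in w1118 and from 0 through 1236 to 3003 CPM in p35;RasV12 cells. The quartiles of Vha16-1 in these groups, 1593 to 2666 and 998 to 1612 CPM, overlapped at their edge, and those of Vha100-2, 243 to 625 and 384 to 891 CPM, overlapped more widely. VhaAC39-1 was 1.53-fold lower at -0.61 (-0.63 to -0.59), with medians of 512 and 283 CPM, and Vha14-1 followed at -0.53. VhaSFD at 0.02 and VhaM9.7-b at -0.03 lay closest to 0, and VhaSFD turned to -0.18 with TMM factors.

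Without the 8 p35;RasV12 and 1 w1118 circulating cells that held over 5000 CPM of lamellocyte or crystal cell markers, these ratios were 0.69 for Vha100-2, -0.73 for Vha16-1 and -0.73 for VhaAC39-1. They were therefore as large without the marker-rich cells. Across the 3 genotypes 9 of 14 canonical genes (64.3%) had levels falling in the order w1118, RasV12, p35;RasV12, namely Vha68-2, Vha55, Vha44, Vha36-1, Vha14-1, Vha13, Vha16-1, VhaPPA1-1 and VhaAC39-1. Among 6274 genes with at least 10 CPM in a circulating group, 21.9% fell and 39.5% rose in that order. Vha100-2 was the 1 canonical gene with a rising order, and it kept that order with TMM factors, at 0.29 and 0.16 for the successive steps. The V1 sum went from 3977 through 3630 to 3398 CPM and the Vo sum from 3874 through 3495 to 3089 CPM. Within the Vo sum, Vha16-1 alone went from 2156 through 1763 to 1345 CPM, a fall at least as large as that of the whole sum. The lower Vo sum is thus that of Vha16-1 and not of the Vo genes as a set.

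**Figure D3:**
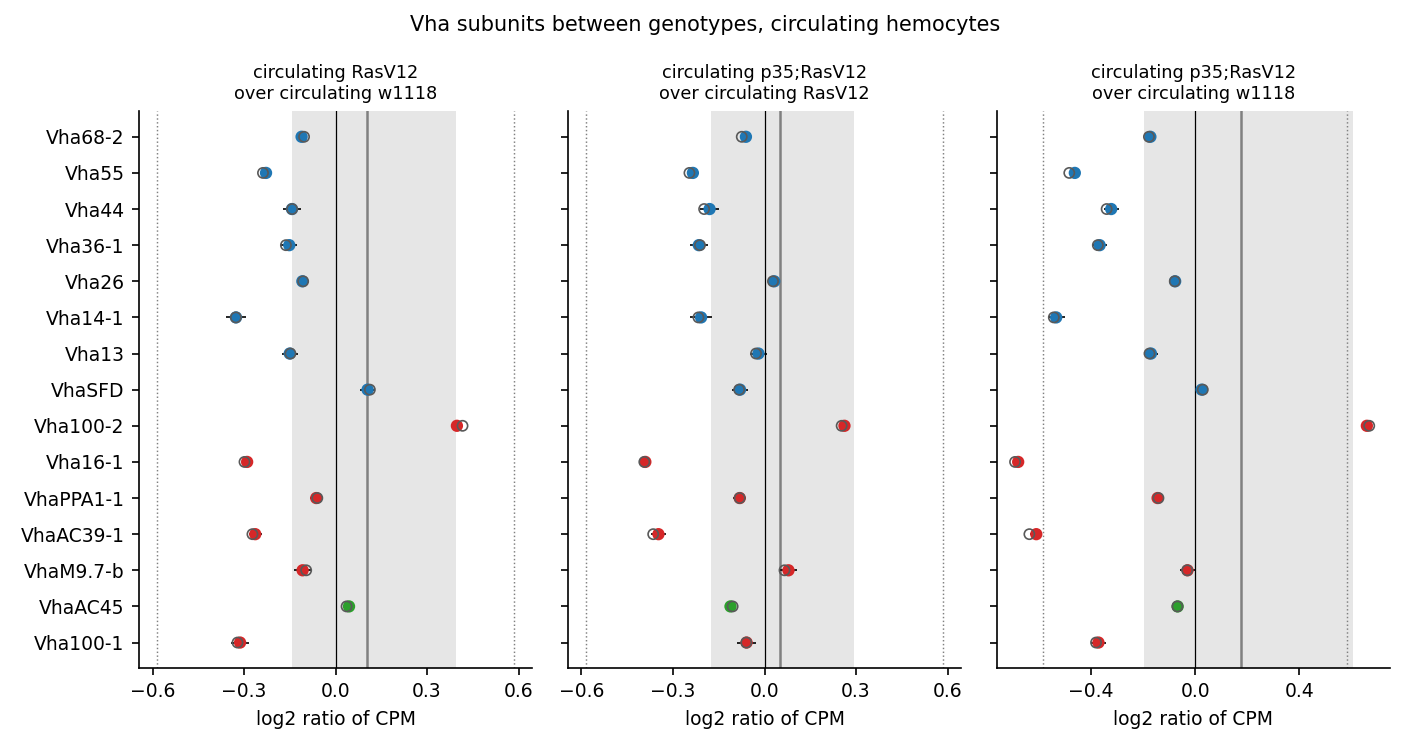
Log2 ratios of 14 canonical Vha genes and Vha100-1 in the 3 comparisons of circulating cells, with counting intervals at 95% as bars, open circles for the ratio without the cell with most reads of that gene, a grey line and band for the median and quartiles of all genes compared, and dotted lines at 1.5-fold. Most canonical genes lie left of the median of all genes, and Vha100-2 lies to its right in all 3 panels, at 0.40, 0.26 and 0.66.

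The deposited annotation divides the circulating cells into clusters 0 to 4, which were made from the expression of these same cells and hold different shares of each genotype. Of w1118 cells, 52 were in cluster 1 and 42 in cluster 3, while 57 RasV12 and 93 p35;RasV12 cells were in cluster 0. The canonical sum was 9601 CPM in w1118 and 8936 CPM in RasV12 cells of cluster 1, and 7282 CPM in RasV12 and 7429 CPM in p35;RasV12 cells of cluster 0. Vha16-1 had 2604 and 2567 CPM in w1118 and RasV12 cells of cluster 1, but 1371 and 1382 CPM in RasV12 and p35;RasV12 cells of cluster 0. In clusters 0 and 1 the genotypes were thus closer to each other than the RasV12 cells of one cluster were to those of the other.

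Within clusters, the canonical ratios between genotypes did not have the same sign everywhere. No share or median over all genes is given within clusters. A shift of all genes there cannot be told apart from one of the Vha genes. In cluster 1, RasV12 over w1118 gave a log2 ratio of the sum of -0.10 with 0 of 14 canonical genes higher, and Vha100-2 was at -0.55. In cluster 4, with 16 RasV12 and 20 w1118 cells, the same comparison gave 0.23 with 11 of 14 higher, and Vha100-2 was at 0.41. In cluster 0, p35;RasV12 over RasV12 gave 0.03 with 10 of 14 higher and Vha16-1 at 0.01, and in cluster 2, with 29 and 20 cells, -0.20 with 2 of 14 higher and VhaAC39-1 at -0.79. The lower levels of Vha16-1 and VhaAC39-1 in all circulating p35;RasV12 cells against w1118 were turned in cluster 0, where their ratios were 0.16 and 0.30 over 8 w1118 cells.

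The next question was how attached cells of both genotypes compared. The canonical sum was 6763 CPM in attached RasV12 and 6050 CPM in attached p35;RasV12 cells, running over single cells from 1353 through a median of 6944 to 11030 CPM and from 1914 through 6088 to 11199 CPM. The log2 ratio of p35;RasV12 over RasV12 was -0.16, and 0.15 with TMM factors, which moved all ratios of this comparison by 0.31. Of the canonical genes, 5 were higher and 9 lower, with a median of -0.10 against -0.22 over 6337 genes, of which 42.9% were higher. One, Vha55, was at least 1.5-fold lower and none higher, beside 38.8% and 25.5% of all genes.

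Vha55 (3R:12623762-12627829, Dm6), the B subunit, was 1.86-fold lower in attached p35;RasV12 cells, at a log2 ratio of -0.89 (-0.91 to -0.88). It ran from 9.99 through a median of 463 to 2517 CPM in RasV12 and from 5.61 through 288 to 839.6 CPM in p35;RasV12 cells, so the groups overlapped. Its ratio lay between -1.21 and -0.54 under the alternatives. Vha100-2 was the highest of the canonical genes at 0.39 (0.38 to 0.40), with Vha36-1 at 0.19 and Vha26 at 0.17. Vha36-1 had 29.8% of its attached p35;RasV12 reads in 1 cell and turned to -0.07 without the top cells, and to -0.33 without the 3 RasV12 and 6 p35;RasV12 cells rich in crystal cell or lamellocyte markers. Without these marker-rich cells VhaPPA1-1 moved from -0.48 to 0.01 and VhaM9.7-c from -0.87 to 0.00.

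Vha100-1 was 3.10-fold lower in attached p35;RasV12 cells, at -1.63 (-1.66 to -1.61). It ran from 1.11 through a median of 154 to 887 CPM in RasV12 and from 0.984 through 38.3 to 450.1 CPM in p35;RasV12 cells. The cell with most reads held 37.1% of the RasV12 and 29.1% of the p35;RasV12 reads, and the ratio was -1.55 without both cells and between -1.78 and -0.86 under the alternatives. Vha36-3 was at -6.61, with 69.0% of its RasV12 reads in 1 cell, and at -5.27 without the top cells. It could enter this comparison only through the group in which it was high.

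Attached cells were then compared with circulating cells of the same genotype. For RasV12, the canonical sum was lower in attached cells at a log2 ratio of -0.21, and higher at 0.15 with TMM factors, which moved all ratios by 0.36. Here 3 canonical genes were higher and 11 lower, with a median of -0.24 against -0.41 over 6625 genes, of which 33.1% were higher. One was at least 1.5-fold higher and 2 lower, beside 17.7% and 42% of all genes. For p35;RasV12, the sum was at -0.24, and at 0.53 with TMM factors, which moved all ratios by 0.77. In this case 4 canonical genes were higher and 10 lower, with a median of -0.19 against -0.66 over 6644 genes, of which 32.1% were higher. The canonical split was thus near that of all genes. At least 1.5-fold higher was 1 and lower were 3, beside 19.9% and 52.2% of all genes. Without TMM factors, 9 and 12 of the 14 canonical genes lay above the median of all genes in the RasV12 and p35;RasV12 comparison. All 8 plasmatocyte markers were at least 1.5-fold lower in attached cells, at -1.77 (Hml) to -0.72 (He) in RasV12 and -1.90 (vkg) to -0.75 (NimC1) in p35;RasV12, where the TMM shift of 0.77 takes NimC1 just above 0. Whether they bear on the Vha ratios was not tested.

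VhaM9.7-b (3L:21539862-21541215, Dm6), the e subunit, was the canonical gene past 1.5-fold higher in attached cells of both genotypes. In RasV12 it was 1.92-fold higher at 0.94 (0.92 to 0.96), running from 0 through a median of 238 to 482 CPM in circulating and from 56.9 through 416 to 1015 CPM in attached cells. In p35;RasV12 it was 1.53-fold higher at 0.61 (0.59 to 0.64), with medians of 256 and 417 CPM. The second ratio fell to 0.39 without the top cells, since 1 attached p35;RasV12 cell held 22.8% of the reads, whereas the first stayed at 0.89. VhaM9.7-c, the other e copy, was also higher in attached cells at 1.03 (0.95 to 1.12) in RasV12, or 0.64 without the top cells, and at 0.53 in p35;RasV12. Its share of the reads per length of the e copies was 7.62%, 8.36% and 6.31% in circulating and 8.87% and 5.95% in attached cells.

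VhaPPA1-1 and Vha68-2 were at least 1.5-fold lower in attached cells of both genotypes. VhaPPA1-1 was at -0.59 (-0.61 to -0.57) in RasV12 and at -0.99 (-1.01 to -0.97) in p35;RasV12, the latter at -0.42 without the marker-rich cells. Its medians over circulating and attached cells were 457 and 276 CPM in the first genotype and 440.0 and 229 CPM in the second. Vha68-2 was at -0.73 (-0.74 to -0.72) in RasV12 and at -0.59 (-0.60 to -0.58) in p35;RasV12, and without the attached cells that held over 10% of their reads on gland and fat body genes it was at -0.55 and -0.42. With TMM factors VhaPPA1-1 stayed lower in both genotypes, at -0.23 and -0.22, while Vha68-2 was at -0.37 in RasV12 and turned to 0.18 in p35;RasV12. VhaAC45 was at -0.54 in RasV12. Vha55 was at -0.74 (-0.76 to -0.72) in p35;RasV12 and at 0.03 with TMM factors, and Vha14-1 at 0.26 was the third highest there.

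Vha100-1 was at 0.22 in RasV12 attached over circulating cells, but at -0.25 without the top cells, and at -1.36 (-1.39 to -1.33) in p35;RasV12. Vha36-3 was 24.4-fold higher in attached RasV12 cells, at 4.61 (4.10 to 5.17), a ratio that rests on 1 circulating and 24 attached cells. This ratio lay between 3.07 and 4.97 under the alternatives that gave a value. Leaving out the top cells gave none, since 1 circulating RasV12 cell held all 31 reads of its group. Vha36-3 could enter this comparison only through the attached group, in which it was high. Of the 14 canonical genes, 4 had opposite signs of p35;RasV12 over RasV12 in circulating and attached cells, and 0 of these were past 1.5-fold in both. The share of all genes with opposite signs is not given here, so whether 4 of 14 is few or many cannot be said. The difference between the locations was not tested.

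**Figure D4:**
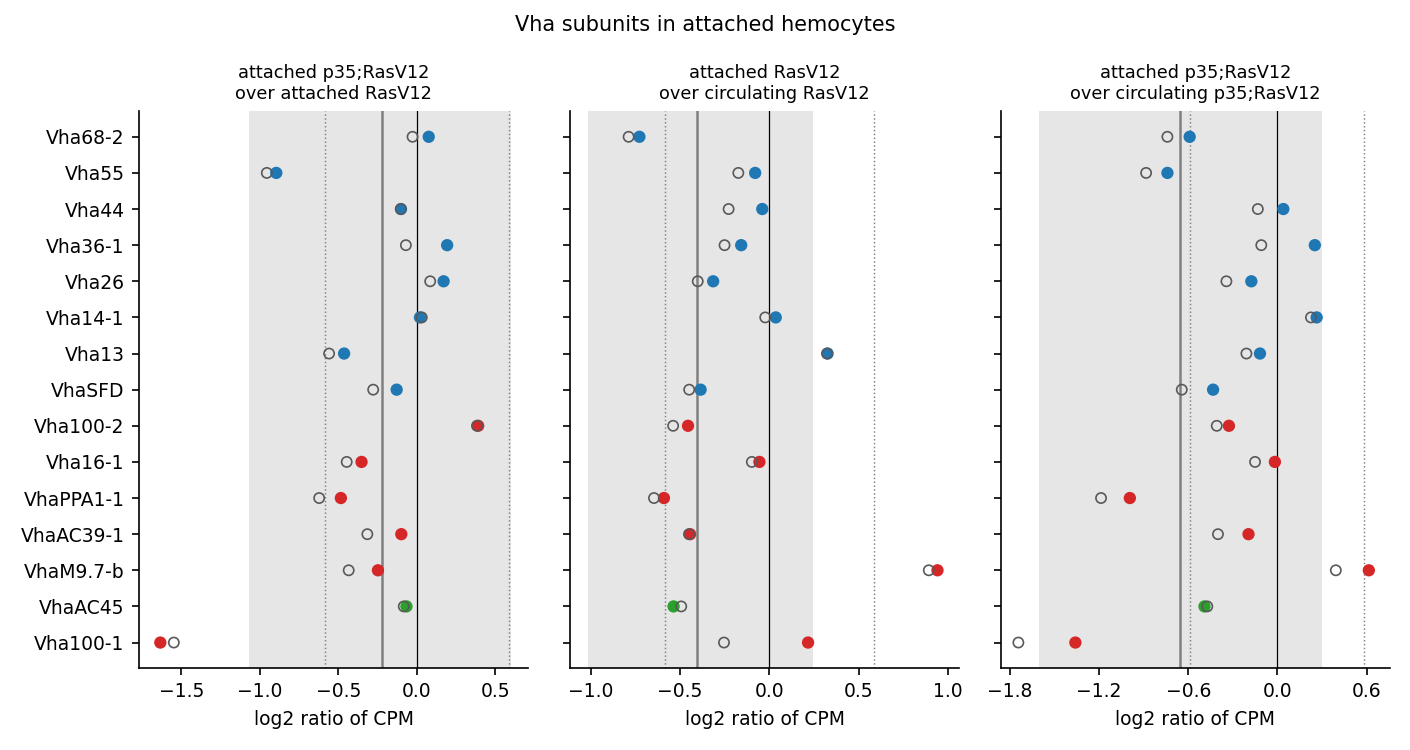
Log2 ratios of 14 canonical Vha genes and Vha100-1 for attached p35;RasV12 over attached RasV12 cells and for attached over circulating cells of each genotype, drawn as in the plot of circulating cells. VhaM9.7-b lies past 1.5-fold to the right in both comparisons of location (0.94 and 0.61), and with TMM factors every ratio moves right by 0.31, 0.36 and 0.77, which turns the sign of the sums.

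Vha100-1 and Vha100-2 code for copies of the same a subunit, and their balance differed between groups. On Dm6, Vha100-1 lies at 3R:29131193-29137980 on the plus strand, where 11 of its exonic bases (0.334%) overlap Alg13, and Vha100-2 at 3R:18390323-18399169 on the minus strand. Per length, Vha100-1 made up 38.4%, 27.6% and 23.4% of the reads of all a copies in circulating w1118, RasV12 and p35;RasV12 cells and 37.8% and 13.0% in attached cells. This share does not depend on the total of a cell. Over single cells its median was 36.7% of 124 w1118, 24.6% of 126 RasV12 and 20.1% of 122 p35;RasV12 circulating cells with a read of either, with the lowest cell at 0% in each and the highest at 100% in w1118 and RasV12 and 96.3% in p35;RasV12. Attached cells ran from 0.324% through a median of 34.0% to 96.7% in RasV12 and from 0.131% through 13.9% to 62.4% in p35;RasV12. Vha100-1 was the main copy in 38 w1118, 29 RasV12 and 16 p35;RasV12 circulating cells and in 10 RasV12 and 1 p35;RasV12 attached cells, so that both kinds of cell occurred in every group.

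By cluster, the median share of Vha100-1 was 47.1% and 60.6% in w1118 and RasV12 cells of cluster 1, 14.3% and 20.3% in RasV12 and p35;RasV12 cells of cluster 0, 18.3% and 19.7% in those of cluster 2, and 26.2% and 32.1% in w1118 and RasV12 cells of cluster 4. The w1118 cells of cluster 3 had 34.6%. Within clusters the genotype written second in each of these pairs thus had the larger median share, the reverse of the order over all circulating cells. Over cells, the rank correlation of the CPM of both copies was 0.08, -0.36 and -0.06 in circulating and 0.65 and 0.02 in attached cells, which is given as a description over cells of 1 sample.

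**Figure D5:**
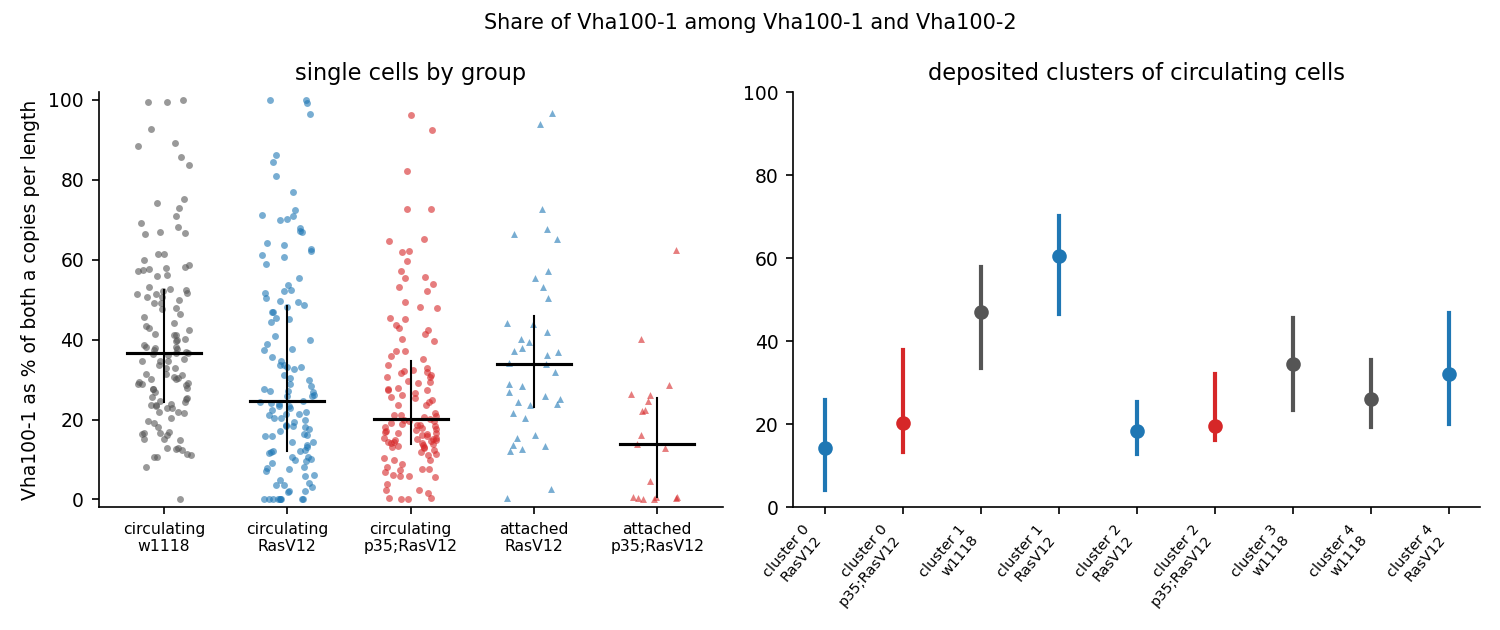
Share of Vha100-1 in the reads per length of Vha100-1 and Vha100-2, in percent, for each cell by group on the left and as the median with quartiles by deposited circulating cluster and genotype on the right. The medians fall from 36.7% in w1118 to 20.1% in p35;RasV12 circulating cells, while cluster 1 has 47.1% and 60.6% in w1118 and RasV12 cells.

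Canonical subunits varied together to a limited degree between cells of a group. Over the 91 pairs, the median rank correlation of CPM was 0.28, 0.17 and 0.26 in the circulating groups, against 0.006, 0.008 and 0.013 for canonical genes with all genes of at least 10 CPM. In attached cells it was 0.24 and 0.23, against 0.13 and 0.08. The canonical genes all lay above 150 CPM, whereas the genes set beside them reached down to 10 CPM. Circulating groups also mix clusters with different canonical sums. Neither level nor cluster was matched, so variation particular to the Vha genes was not tested. The highest pair was Vha68-2 with VhaAC39-1 in w1118 (0.56), Vha14-1 with Vha13 in circulating RasV12 (0.50) and Vha68-2 with VhaAC45 in circulating p35;RasV12 cells (0.56). In circulating RasV12 cells Vha100-2 went against Vha16-1 at -0.32, the lowest pair there. Pairs ran from -0.22 to 0.69 in attached RasV12 cells. They ran from -0.55 (VhaSFD with VhaM9.7-b) to 0.87 (Vha68-2 with Vha26) in the 19 attached p35;RasV12 cells. Cells of a group are 1 sample, and the sum correlated with the reads of a cell at -0.19, -0.03 and 0.20 in the circulating groups. In attached RasV12 cells the canonical sum correlated with the gland genes at -0.59, and in attached p35;RasV12 cells at -0.11. Both are counted within the same total of a cell, so more gland reads lower the canonical CPM by themselves. A relation beyond this was not tested.

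In circulating cells, partners of the pump outside the Vha symbols did not follow 1 direction. Of 4 listed, 2 were higher in RasV12 over w1118, 2 in p35;RasV12 over RasV12 and 3 in p35;RasV12 over w1118. Over all genes 61.1%, 56.3% and 62.2% were higher. In attached over circulating RasV12 cells 0 of 4 were higher before TMM factors, beside 33.1% of all genes. It was 1 of 4 in attached p35;RasV12 over RasV12 cells and in attached over circulating p35;RasV12 cells, beside 42.9% and 32.1% of all genes. ATP6AP2, the second accessory protein of Vo, had 474, 415 and 403 CPM in circulating and 357 and 422 CPM in attached cells. Rbcn-3A and Rbcn-3B form the rabconnectin complex that helps V1 and Vo assemble, and mtd belongs to a family of V1-binding proteins. Rbcn-3A had 87.5, 68.7 and 89.5 CPM in circulating and 18.7 and 5.35 CPM in attached cells. Of these 4 genes, 0 were past 1.5-fold in any comparison of circulating cells, and 2 were past 1.5-fold lower in attached p35;RasV12 over RasV12, 1 in attached over circulating RasV12 and 3 in attached over circulating p35;RasV12 cells, where 38.8%, 42% and 52.2% of all genes were lower by that fold.

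Of 16 lysosomal genes (hydrolases, membrane proteins and transporters), 13 passed the CPM minimum in every comparison. Between RasV12 and w1118 circulating cells 7 of 13 were higher and 0 past 1.5-fold, with a median of 0.09. Over all genes 61.1% were higher, 16.3% of all by at least 1.5-fold, and 5.55% were lower by that fold. Between p35;RasV12 and RasV12 circulating cells 9 were higher with a median of 0.26, beside 56.3% of all genes. The cathepsin L gene CtsL1, at 674 and 1374 CPM in RasV12 and p35;RasV12, was past 1.5-fold at 1.03, as were 9.87% of all genes. Between p35;RasV12 and w1118, 4 of 13 were past 1.5-fold higher (CtsL1, CtsB, Npc1a and Hexo1) and 1 lower (Npc2a). Over all genes 26.1% were higher and 11% lower by that fold, and the lysosomal median of 0.19 lay next to the 0.18 of all genes. The attached comparison of genotypes gave 4 past 1.5-fold higher and 3 lower, beside 25.5% and 38.8% of all genes. Attached over circulating cells gave 2 and 4 in RasV12, beside 17.7% and 42%, and 1 and 5 in p35;RasV12, beside 19.9% and 52.2%.

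Of 12 genes of the lysosomal TORC1 platform and its regulators, 10 were compared. In circulating cells 3 were higher in RasV12 over w1118, 4 in p35;RasV12 over RasV12 and 3 in p35;RasV12 over w1118, with medians of -0.14, -0.16 and -0.17. Over all genes 61.1%, 56.3% and 62.2% were higher, with medians of 0.10, 0.05 and 0.18. Lamtor1, a membrane anchor of the Ragulator complex, was the gene past 1.5-fold in the last of these, at -0.73 from 126 and 75.8 CPM in w1118 and p35;RasV12. Over all genes 11% were lower by that fold. In attached p35;RasV12 over RasV12 cells 3 were past 1.5-fold higher (BHD at 2.19, Lamtor3 at 0.95 and Rheb at 0.63) and 3 lower (RagA-B at -1.74, RagC-D at -1.35 and mTor at -1.12), beside 25.5% and 38.8% of all genes. Attached over circulating cells gave 0 higher and 2 lower in RasV12, beside 17.7% and 42%, and 1 higher and 3 lower in p35;RasV12, beside 19.9% and 52.2%.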

How the data were processed

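For circulating and attached hemocytes the authors aligned reads to Dm6 (annotation release 6.37) with STAR 2.7.2 and counted them per gene with featureCounts 2.0.0 under default settings, and the deposited values are raw counts per gene and well. Per the file headers no strand or pair option was set, so each mate counts in the attached set and ambiguous reads are lost.

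Genotypes and cluster numbers came from the deposited annotation, since GEO's labels name 2 samples only. Kept cells had 200 genes or more and a mitochondrial share of 10% or less (methods 2.10). Counts were summed by group, divided by the group total and compared as log2 ratios for genes that reached 10 CPM in either group. Intervals for ratios and shares were exact at 95% (Clopper-Pearson for shares). Each group was taken as 1 sample, so no test was run.

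The members and gene lists were chosen with earlier results of these data known. All Vha genes were accounted for, and the 3 largest and 3 smallest ratios of each comparison were named. Alternatives were the mean over cells, leaving out the cell with most canonical reads, no cell filter, the filter of methods 2.9 (at most 5% mitochondrial reads, 200 to 4000 genes), totals without mitochondrial and rRNA genes or without gland and fat body genes, TMM factors from edgeR 4.0.16, thinning to 420000 reads, the cluster shared by most cells, a minimum of 50 CPM, 2-fold, and at least 5 reads. Leaving out the cell with most reads of each member, each cluster with at least 10 cells of both genotypes, cells with over 5000 CPM of lamellocyte or crystal cell markers, and cells with over 10% of reads on gland and fat body genes were added after the data were seen. No doublet caller was run. The computing of ratios and intervals was checked on simulated independent counts. These held no PCR copies and no differences between cells, so the check cannot show that the intervals are wide enough for these data. Python 3.11.15 (numpy 2.4.6, pandas 2.3.3, scipy 1.17.1, matplotlib 3.10.9) and R 4.3.3 were used.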

Additional observations from a re-analysis of the deposited data

Results flagged for a closer look

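The attached set also holds 17 wells with a genotype label ending in _C, a mark that the sources used here do not explain, and these wells were put in no group. The canonical Vha genes were read in all of them, with a summed level of 2893 to 10543 CPM and a median of 6201 CPM, inside the range of the attached cells. By label the sum ran from 4980 through a median of 6760 to 10543 CPM in 8 w1118_C wells, from 2893 through 4861 to 5056 CPM in 5 Ras_C wells, and from 3604 through 6059 to 7693 CPM in 4 p35Ras_C wells. Vha100-1 and Vha100-2 had medians of 63.9 and 225 CPM over the 17 wells, and VhaM9.7-b one of 405 CPM. The wells held 195990 to 2.61058e+07 reads.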

How the results depend on the processing

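No paired analysis was possible because each group is 1 sample and no replicate numbers are given. The number of canonical genes with a higher level moved by over 1.5 times as follows. TMM factors gave 1 of 14 in each of the 3 circulating comparisons, 10 in attached p35;RasV12 over RasV12, and 8 (RasV12) and 13 (p35;RasV12) in attached over circulating cells. With them the log2 ratio of the sum turned to 0.15, 0.15 and 0.53 and the canonical median to 0.21, 0.12 and 0.58 in the last 3 comparisons, and Vha55 to 0.029 in the last. The filter of methods 2.9, which left no attached cell and hence no value there, gave 9 in RasV12 over w1118 (sum 0.084, median 0.064), 6 in p35;RasV12 over RasV12 and 8 in p35;RasV12 over w1118 (sum 0.043, median 0.075).

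Within deposited clusters, cluster 1 gave 0 for RasV12 over w1118, and cluster 0 gave 10 for p35;RasV12 over RasV12 (sum 0.029, median 0.038) and 11 for p35;RasV12 over w1118 (sum 0.21, median 0.21, Vha16-1 0.16, VhaAC39-1 0.30). For p35;RasV12 over w1118 the mean over cells, thinned cells and cells not rich in other markers each gave 1. For attached p35;RasV12 over RasV12, thinned cells gave 8 with a median of 0.015, and leaving out the cell with most reads of each gene gave 3. For attached over circulating RasV12 cells, totals without gland and fat body genes gave 6 and cells not rich in them 5, and for p35;RasV12 leaving out the cell with most reads of each gene gave 2. The causes were not tested.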
